A study of Homo sapiens with 9 samples.

Results

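HSPB8, a small heat shock protein gene on chromosome 12, is described here in H3K9me3 domain lists of 8 hTERT RPE-1 libraries. It was chosen by name as 1 of 20037 protein-coding genes, because its coverage by these domains stood apart between cells overexpressing mCherry-LmnB1 and cells overexpressing mCherry. The coverage, the domain borders around the gene and the reads of the domains over it are therefore given as a description, with no test between the constructs. hTERT RPE-1 is an established human cell line from retinal pigment epithelium that was made immortal by adding telomerase. H3K9me3 was profiled by Cut&Run, in which a nuclease tethered to an antibody releases the marked chromatin for sequencing. The LmnB1 group held 4 libraries of stable lines overexpressing lamin B1, from the clones LmnB1_16 and LmnB1_6 with biological replicates 1 and 2 of each. The mCherry group held 4 libraries of stable lines overexpressing mCherry, from the clones mCherry_3 and mCherry_4 with replicates 1 and 2 of each. Every line received doxycycline at 0.05 ug/mL for 24 hours, controls included, and each construct is represented by 2 clonal lines. The labels do not name the promoter that drives the constructs. The input was a separate sample of untreated wild-type cells.

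HSPB8 belongs to the family of small heat shock proteins, which share an alpha-crystallin domain and bind unfolded proteins without using ATP. With the co-chaperone BAG3, the Hsp70 protein HSPA8 and the ubiquitin ligase STUB1, it directs misfolded proteins to autophagy, and inherited changes of the protein cause motor neuropathies. H3K9me3 marks compact chromatin that is bound by heterochromatin protein HP1, and much of it lies against the nuclear lamina, of which lamin B1 is a filament protein.

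The lists showed a block of H3K9me3 domains in all 8 libraries, unbroken in some and in pieces in others, to the left of HSPB8, over the neural splicing factor gene SRRM4 and the sequence before it. In the 4 LmnB1 libraries the block ran on to the right across HSPB8. In the 4 mCherry libraries it ended before the gene. HSPB8 occupies positions 119178931 to 119194746 of chromosome 12 (GRCh38) and is transcribed from the plus strand, so the block approached it from the side of its promoter. Exons and introns are not annotated in the table used here.

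The 250 bases before the annotated start of HSPB8 are shown because listed domains covered this stretch in 3 of the 4 LmnB1 libraries and in none of the mCherry libraries. They lie at chr12:119178681-119178930 on the plus strand of GRCh38.p14 and come from RefSeq.
HSPB8: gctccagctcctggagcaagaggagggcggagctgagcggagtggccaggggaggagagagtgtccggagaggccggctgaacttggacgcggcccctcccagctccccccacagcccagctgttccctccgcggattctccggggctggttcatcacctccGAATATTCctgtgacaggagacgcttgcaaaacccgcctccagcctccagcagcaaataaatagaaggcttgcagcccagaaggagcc
Capitals mark GAATATTC, a match to GAANNTTC, the inverted pair of units bound by heat shock factors. The match lies 88 to 81 bases before the start, and a second one, GAAGTTTC, lies at bases 5 to 12 of the transcript. The motif reads the same on both strands. It occurred in 5.56% of 15843 RefSeq promoters of the same 300 bases (250 before and 50 after the start), and 0.284% held at least 2 matches. The other order of the units, TTCNNGAA, also the same on both strands, had no match here and was found in 6.60% of promoters. A match is a run of letters and does not show binding. The HSPB8 promoter held 62.0% G and C, close to the median of 62.7%. Its CpG ratio, observed over expected, was 0.520, against a median of 0.763 over all promoters. The promoters of SRRM4 and CCDC60, the genes on either side, had CpG ratios of 0.782 and 0.619 and no match to either motif.

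The covered percent of a gene is the share of its length under listed domains. HSPB8 was covered over 100% of its length in both LmnB1_16 libraries and in LmnB1_6 replicate 1, and over 80.6% in LmnB1_6 replicate 2. It was at 0 in all 4 mCherry libraries. The groups did not overlap, and within the LmnB1 group 1 library was lower than the others. The mean was 95.1 ± 9.71% with LmnB1 (SD, n = 4) and 0 with mCherry (n = 3, with the mCherry_3 pair as 1). Over 229 domains listed at the same coordinates in both mCherry_3 libraries, no difference in read counts beyond sampling noise was detected (chi-square per degree of freedom 1.08, p = 0.197), so the pair was counted as 1 sample in means and SDs. The ratio was 1.10 in LmnB1_16, close to that of mCherry_3 but over 648 domains, 1.73 in LmnB1_6 and 1.67 in mCherry_4. The corresponding p was 0.0380 in LmnB1_16, 0.000368 in LmnB1_6 and 0.0162 in mCherry_4. This rule rests on p, which depends on the number of shared domains. LmnB1_16 was therefore counted as 2 at nearly the same ratio, and the LmnB1 SDs may be too small. Counting the mCherry_3 pair as 1 or as 2 leaves the mCherry mean for HSPB8 at 0. In 2.69% of the 2304 genes with a mean coverage of at least 5% every LmnB1 library exceeded every mCherry library, and in 0.391% every one was lower. In the fit over these 2304 genes (limma, clone as a random block, adjusted p below 0.05), 0.217% were called higher with LmnB1 and 0.0868% lower. Since HSPB8 was picked from this contrast, nothing is read from these shares. A pattern of at least 80.6% coverage in all 4 libraries of a construct and 0 in all 4 of the other was sought. Of 20037 genes, 4 showed it with LmnB1 as the covered group (HSPB8, CLVS2, FOXA2 and TSPAN8). The limit is the lowest LmnB1 value of HSPB8 itself, so HSPB8 meets it by construction. With mCherry as the covered group 1 gene showed the pattern, SPRR2E, which was named after its values were seen and has close copies nearby. These counts were not tested. How uniquely reads map was not tested for any of these genes.

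**Figure D1:**
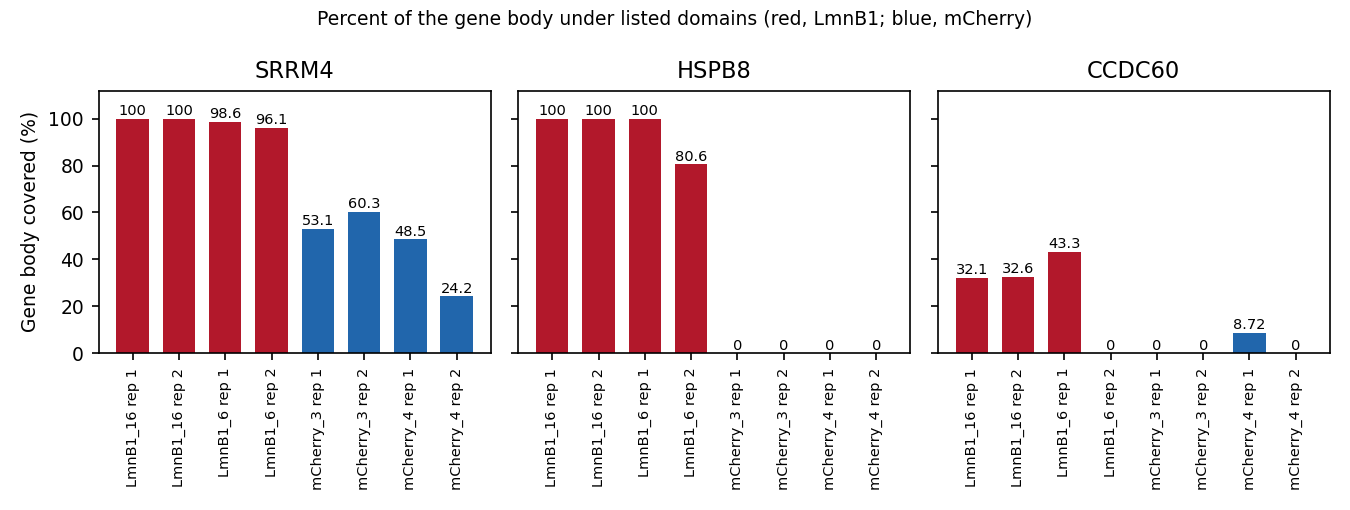
Percent of the gene body under listed H3K9me3 domains (y axis) in each of the 8 libraries (x axis) for SRRM4, HSPB8 and CCDC60, in red for LmnB1 and blue for mCherry, 1 bar per library with no error bars. HSPB8 stands at 80.6% to 100% in the LmnB1 libraries and at 0 in the mCherry libraries, while SRRM4 is partly covered in the mCherry libraries too.

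The domain over HSPB8 differed in length among the LmnB1 libraries. In LmnB1_16 replicate 1 it ran from 118561001 to 119401000 (840 kb), and in LmnB1_16 replicate 2 from 118579001 to 119402000 (823 kb). In LmnB1_6 replicate 1 it ran from 118984001 to 119413000 (429 kb), next to a separate domain on its left. In LmnB1_6 replicate 2 it ran from 119182001 to 119240000 (58 kb), in a block broken into 7 domains. So a single call spanned the whole block in LmnB1_16, and shorter calls tiled it in LmnB1_6. With domains under 10 kb apart joined, the lengths were 840, 823, 803 and 681 kb in the same order of libraries.

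Reads over the gene were counted only for whole domains. The domain over HSPB8 held 15852 H3K9me3 reads and 7052 input reads in LmnB1_16 replicate 1, and 14980 and 6884 in LmnB1_16 replicate 2. It held 6769 H3K9me3 reads and 3514 input reads in LmnB1_6 replicate 1, and 755 and 435 in LmnB1_6 replicate 2. Per kb of domain this gave 18.9, 18.2, 15.8 and 13.0 H3K9me3 reads in that order. Input stood at 8.40, 8.36, 8.19 and 7.50 reads per kb, slightly below the median over each library's list (8.73, 8.64, 8.57 and 8.33). The input counts come from the same input sample over overlapping stretches. Whether the input depth at HSPB8 is unusual was not tested. The authors' log2 enrichment over input was 1.35 and 1.11 in LmnB1_16 and 1.03 and 0.94 in LmnB1_6, with a mean of 1.11 ± 0.18 (SD, n = 4). On a linear scale the folds over input were 2.56, 2.16, 2.04 and 1.93. In the first 3 libraries these values average over 429 kb or more and are not specific to HSPB8. In LmnB1_6 replicate 2 the domain is short and starts inside the gene.

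Within its own list the domain over HSPB8 lay above the median enrichment in every LmnB1 library. In LmnB1_16, 67.2% and 66.4% of the domains in the list had a lower log2 value, and in LmnB1_6 it was 68.6% and 93.7%. Among domains of similar length (between 0.5 and 2 times as long) the shares were 81.0%, 83.3%, 79.4% and 98.9%. In LmnB1_6 replicate 2 the domain was thus among the most enriched of its length, and its log2 value of 0.94 was the highest of the 7 domains in the block, followed by 0.93. No mCherry library listed a domain there. Of the listed domains, 61.6% and 64.4% in mCherry_3 and 74.7% and 92.7% in mCherry_4 had a log2 value at or below 0.94. Every list reaches down to 0.60, so finding such domains was certain. These shares say nothing on why none was listed over HSPB8. Absence from a list does not show that the mark is absent, because enrichment may fall a little short of the authors' threshold.

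**Figure D2:**
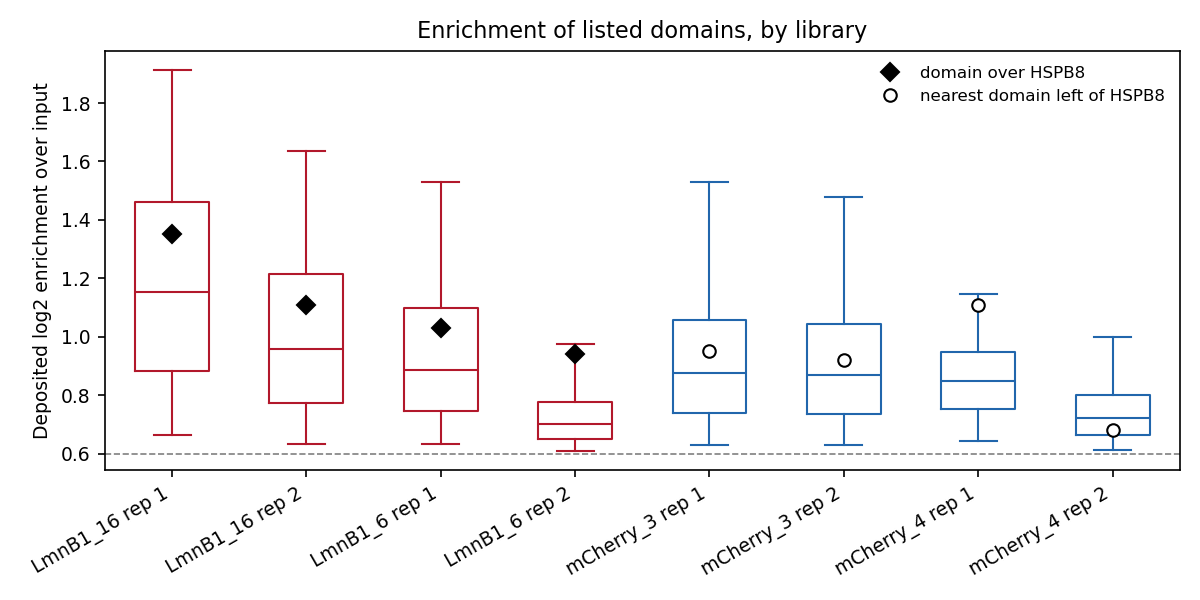
Deposited log2 enrichment over input (y axis) of all listed domains in each library (x axis), with boxes from the 25th to the 75th percentile, the median as a line and whiskers from the 5th to the 95th percentile, in red for LmnB1 and blue for mCherry. Diamonds mark the domain over HSPB8 (0.94 to 1.35 in the LmnB1 libraries), open circles the nearest domain left of the gene in the mCherry libraries (0.68 to 1.11), and the dashed line the lowest value listed, 0.60.

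The block's left border lay in a similar range with both constructs. Its right border fell on different sides of HSPB8, which follows from choosing a gene covered with LmnB1 and not with mCherry. The first covered base after position 118500001 lay 618 and 600 kb before the start of HSPB8 in LmnB1_16 and 569 and 557 kb before it in LmnB1_6. It lay 617 and 599 kb before the start in mCherry_3 and 600 and 514 kb before it in mCherry_4. The ranges overlapped, with means of 586 ± 28.0 kb with LmnB1 (SD, n = 4) and 574 ± 52.1 kb with mCherry (SD, n = 3).

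On the right, with domains under 10 kb apart joined, the block ended 222 and 223 kb after the start of HSPB8 in LmnB1_16 and 234 and 154 kb after it in LmnB1_6. In the mCherry libraries the last domain before the gene ended 101 and 87.9 kb before its start in mCherry_3 and 87.9 and 111 kb before it in mCherry_4. These ends fell at 119078000, 119091000, 119091000 and 119068000, within a 23 kb stretch inside SRRM4. The LmnB1 value is the end of the joined domains over the gene, and the mCherry value is the end of the last domain before it whatever the gap to its left, which was 40 kb in mCherry_4 replicate 2. The values are therefore set side by side with no difference of means. Domains to the right of the gene in mCherry_4 replicate 1, given below, are left out of its value.

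Between 118500001 and 120000000, 268 kb was covered in all 8 libraries and 620 kb in none. In all, 173 kb was covered in all 4 LmnB1 libraries and no mCherry library, and 0 kb showed the reverse. The window was set around a gene chosen for coverage with LmnB1 alone. The direction here and in the lengths below follows in part from that choice, and no rate outside the window is given for comparison. The longest stretch with LmnB1 domains and no mCherry domain ran from 119091001 to 119277000 (186 kb) and holds HSPB8 and the last part of SRRM4. Bases listed in at least 1 mCherry library and no LmnB1 library came to 7 kb. LmnB1 libraries covered 850, 830, 816 and 670 kb of the window (LmnB1_16, then LmnB1_6), and mCherry libraries covered 516, 519, 544 and 294 kb (mCherry_3, then mCherry_4). To the left of HSPB8 the covered lengths were 618, 600, 565 and 528 kb with LmnB1 and 516, 505, 469 and 294 kb with mCherry. To the right they were 216, 214, 235 and 129 kb with LmnB1 and 0, 14, 75 and 0 kb with mCherry.

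**Figure D3:**
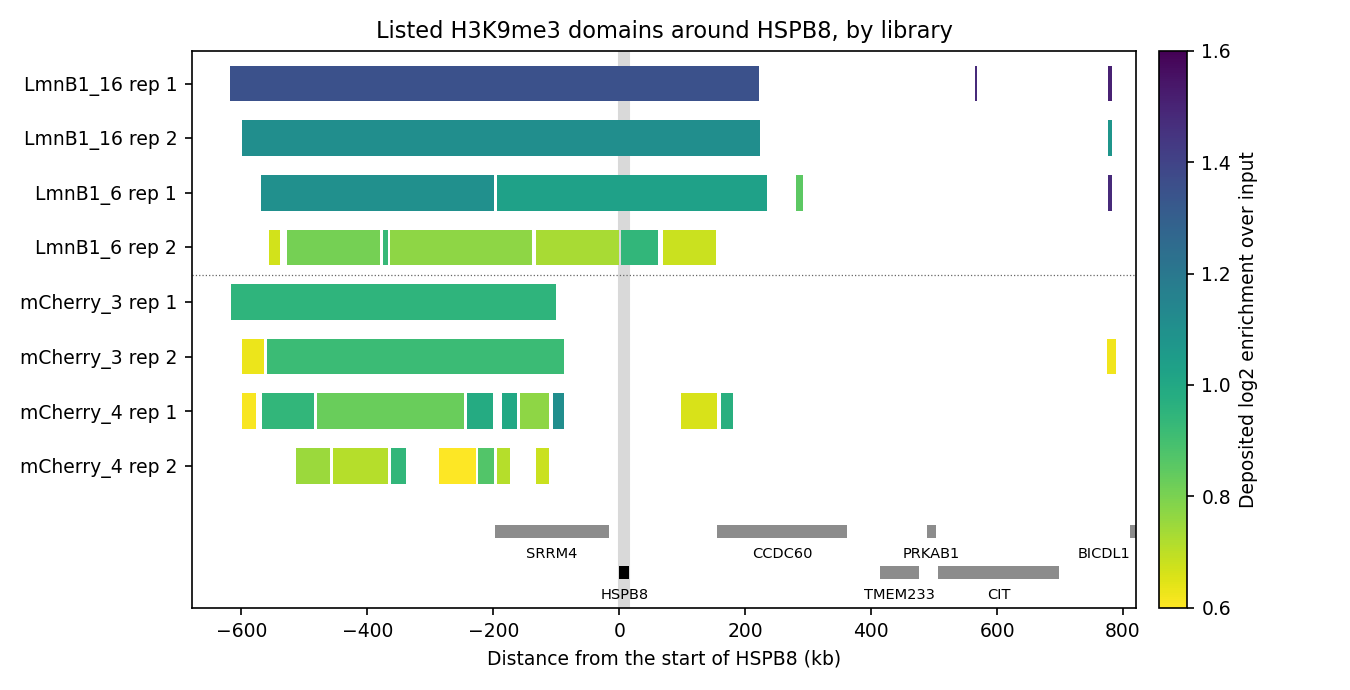
Listed H3K9me3 domains (bars) in 1.5 Mb around HSPB8, 1 row per library with LmnB1 above the dotted line and mCherry below it, against distance from the start of HSPB8 in kb (x axis), with colour for the deposited log2 enrichment, protein-coding genes in grey and black (BICDL1 is cut at the window's end), and HSPB8 shaded. The block starts 514 to 618 kb before the gene in every library, and passes over it in the LmnB1 libraries alone.

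One mCherry library listed the mark on both sides of HSPB8. In mCherry_4 replicate 1 a domain from 119277001 to 119334000 (log2 0.66) and another from 119341001 to 119359000 (log2 0.97) began 82.3 kb after the end of the gene, and the gap over HSPB8 measured 186 kb. These domains lie within the stretch covered in the LmnB1_16 libraries and LmnB1_6 replicate 1. In the other mCherry libraries the stretch without a listed domain around HSPB8 was 1257 kb (mCherry_3 replicate 1), 863 kb (mCherry_3 replicate 2) and 1262 kb (mCherry_4 replicate 2).

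The annotated start of HSPB8 was covered in 3 of the 4 LmnB1 libraries and in 0 of the 4 mCherry libraries. In LmnB1_6 replicate 2 a gap from 119178001 to 119182000 held the start, all 250 bases printed above and the first 3070 bases of the gene. This gap measured 4 kb, the smallest that separates 2 domains in any list. The start of SRRM4, 118981541, lay in such a gap too in some libraries, from 118980001 to 118984000 in LmnB1_6 replicate 1 and in mCherry_4 replicate 2, and from 118979001 to 118993000 in mCherry_4 replicate 1. It was covered in 3 LmnB1 and 2 mCherry libraries.

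SRRM4, which ends 15.9 kb before HSPB8, was covered over 100% in both LmnB1_16 libraries and over 98.6% and 96.1% in LmnB1_6. It was covered over 53.1% and 60.3% in mCherry_3 and over 48.5% and 24.2% in mCherry_4. The values did not overlap, and the uncovered part in the mCherry libraries was mainly the end facing HSPB8. CCDC60 begins 140 kb after HSPB8 and was covered over 32.1% and 32.6% in LmnB1_16, 43.3% in LmnB1_6 replicate 1 and 0 in LmnB1_6 replicate 2. It was at 8.72% in mCherry_4 replicate 1 and at 0 in the other mCherry libraries, so its groups overlapped. Neither SRRM4 nor CCDC60 was called in the fit (limma adjusted p of 0.191 and 0.907 at differences of 52.2 and 24.8 points). Both genes share the border of the block with HSPB8, and their values are not independent of it. Further right, TMEM233, the AMPK subunit gene PRKAB1 and the cargo adaptor gene BICDL1 were at 0 in all 8 libraries. The kinase gene CIT, active in cytokinesis, was at 0 in all but LmnB1_16 replicate 1, at 1.57%.

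Depth moved with the construct. Estimated from the lists relative to the shared input, it ran from 0.880 to 1.01 in the LmnB1 libraries and from 0.421 to 0.859 in the mCherry libraries, so depth and construct cannot be told apart. H3K9me3 reads in domains ran from 4467294 to 10321442 with LmnB1 and from 2855378 to 6959349 with mCherry. Domains covered 357 to 646 Mb with LmnB1 and 320 to 529 Mb with mCherry. LmnB1_6 replicate 2 covered 357 Mb, less than either mCherry_3 library (529 and 528 Mb). Its estimated depth was higher, at 0.902 against 0.819 and 0.816. HSPB8 was 80.6% covered in LmnB1_6 replicate 2 and at 0 in mCherry_3. The part of depth in the coverage of HSPB8 was not tested. When each list was cut from its highest score down to the length of the shortest one, HSPB8 kept 100%, 100%, 100% and 80.6% in the LmnB1 libraries and 0 in the mCherry libraries. That cut can only remove domains, so it could not have added coverage to a mCherry library. With domains of a log2 enrichment of at least 1 alone, LmnB1_6 replicate 2 fell to 0 and the other LmnB1 libraries stayed at 100%.

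The other small heat shock genes did not carry the mark as HSPB8 did. The list held 10 genes taken as relatives, and whether each encodes the alpha-crystallin domain was not checked. HSPB1, HSPB2, HSPB3, HSPB6, HSPB7, HSPB9, the lens crystallin genes CRYAA and CRYAB, and the sperm tail gene ODF1 were 0 in all 8 libraries. HSPB11 is listed by RefSeq as IFT25, not under a heat shock name. It was covered over 14.4% in LmnB1_16 replicate 1 and in LmnB1_6 replicate 1, and was at 0 in the other 6 libraries. None of the 10 reached a mean of 5%, so 0 were tested and 0 called. In comparison, 15897 of 20037 genes (79.3%) were at 0 in all 8 libraries, so a count of 9 in 10 is close to what most genes show. The nearest domain to HSPB3 in any library was 33.6 kb away and that to CRYAA 24.2 kb away, while it was 257 kb away for HSPB1 and at least 393 kb away for HSPB2, CRYAB, HSPB9 and ODF1.

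The 7 genes around the HSPB8 complex were at 0 in all 8 libraries, as were 79.3% of all protein-coding genes. They were BAG3, HSPA8 and STUB1, the filamin gene FLNC and its partner gene SYNPO2, the autophagy receptor gene SQSTM1 and the heat shock factor gene HSF1. Of 24 other heat shock genes, 22 (91.7%) were at 0 in all 8 libraries. HSP90AA1, an inducible Hsp90 gene, had 6.78% covered in both LmnB1_16 libraries, 15.3% in LmnB1_6 replicate 1 and 0 in LmnB1_6 replicate 2 and in the mCherry libraries. HSPD1, the mitochondrial chaperonin gene, had 3.05% in LmnB1_16 replicate 2 and 0 elsewhere. No member of either list reached the 5% needed for the test. With every gene covered in at least 1 library tested, HSPB11, HSP90AA1 and HSPD1 entered, and 0 were called in limma (0 at an unadjusted p below 0.05).

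The labels call these cells retinal pigment epithelium, which domain lists cannot test, since they measure no expression. Of 13 pigment epithelial and epithelial marker genes, 11 (84.6%) were at 0 in all 8 libraries, against 79.3% of all protein-coding genes. The pigment cell factor gene MITF was covered over 100% and 64.4% in LmnB1_6 and was at 0 in LmnB1_16 and in the mCherry libraries. OTX2, another transcription factor gene of this tissue, was covered over 100% and 29.3% in LmnB1_16 and was at 0 in LmnB1_6 and in the mCherry libraries. Neither passed (limma adjusted p of 0.909 and 0.911 at differences of 41.1 and 32.3 points).

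The genes whose coverage was most like that of HSPB8 were ranked by the root mean square difference over the 8 libraries. CLVS2 on chromosome 6, a lipid-binding protein gene of clathrin-coated vesicles, was closest at 2.53 points, with 80.7% to 100% in the LmnB1 libraries and 0 in the mCherry libraries. Its lowest value fell in LmnB1_6 replicate 2, as for HSPB8, a likeness that the ranking itself favours. FOXA2 on chromosome 20, a forkhead factor gene, followed at 6.86 points and TSPAN8 on chromosome 12, a tetraspanin gene, at 9.35 points. CNBD1 on chromosome 8 stood at 13.5 points, with 78.2% to 98.2% in the LmnB1 libraries and 4.98% to 15.3% in the mCherry libraries. GDAP1 on chromosome 8, a mitochondrial outer membrane protein gene, stood at 21.1 points, with 40.3% to 85.8% and 0 to 24.5%. The nearest mCherry domain on either side of HSPB8 was 82.3 to 111 kb away, depending on the library. That distance ran from 12.2 to 287 kb for CLVS2, from 24.0 to 124 kb for FOXA2 and from 2.00 to 990 kb for TSPAN8, so the ranges overlapped. The enrichment of the domains over these genes differed too. The strongest domain over HSPB8 had a log2 value of 1.35, 1.11, 1.03 and 0.94 in the LmnB1 libraries (LmnB1_16, then LmnB1_6), against 0.82, 0.67, 1.00 and 0.62 for CLVS2, 1.13, 0.87, 0.80 and 0.66 for FOXA2, and 0.84, 0.68, 1.21 and 0.83 for TSPAN8. The domain over HSPB8 had the highest of these values in each library except LmnB1_6 replicate 1, where that over TSPAN8 was higher. Each value averages over a whole domain, 58 to 840 kb long for HSPB8, and domain lengths at the other genes are not given. The order therefore describes domains, not genes, and was not tested.

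**Figure D4:**
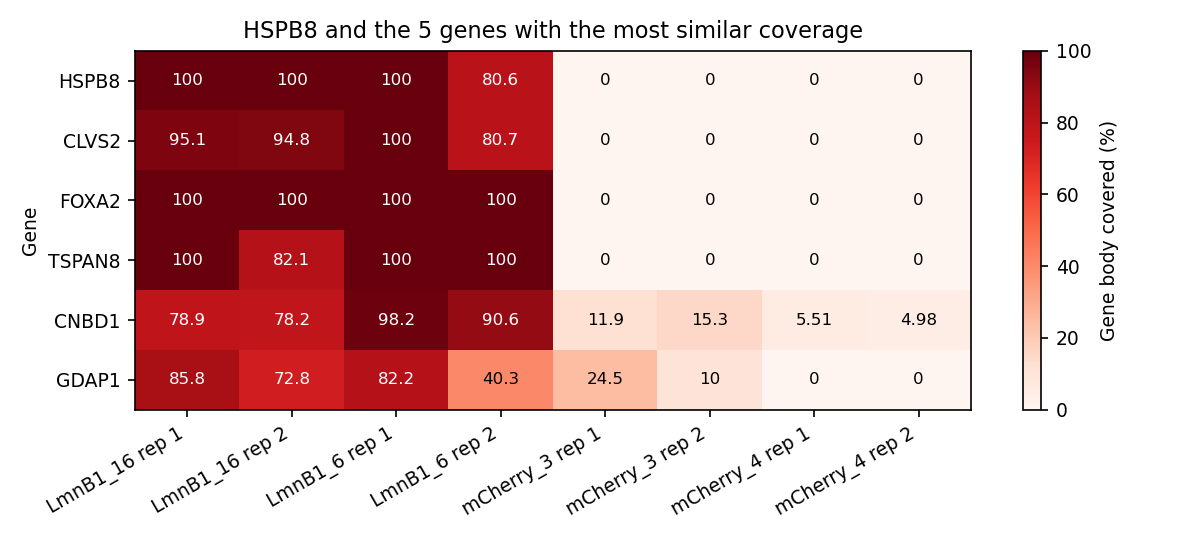
Percent of the gene body covered (colour and printed number) for HSPB8 and the 5 genes with the smallest root mean square difference from it (rows) in the 8 libraries (columns, LmnB1 left of mCherry). HSPB8, CLVS2, FOXA2 and TSPAN8 are at 0 in each mCherry library, and CNBD1 and GDAP1 are partly covered in some.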

How the data were processed

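Cut&Run libraries for H3K9me3 were analysed from the authors' deposited domain lists, 1 per library, with replicates not pooled. Builds GRCh38 and hg38 and the tools deepTools, DESeq2, DiffBind 3.0.15 and SICER are named, without their roles, in the submitters' processing notes, which name no aligner. The deposited lists have no header, so what each column holds was inferred from its values. For each domain 2 deposited columns were read as a raw count of H3K9me3 reads and a raw count of input reads made by the authors. The others were read as a deposited p-value, a second deposited p-value adjusted for false discovery, the authors' log2 enrichment over input, and a deposited score of 100 times that log2 value. The lists hold 60138 domains in steps of 1000 bp, and the lowest log2 value in each is 0.60. Reads exist only for listed domains, so no count model was run. Depth was read from the constant between the log2 value and the log2 ratio of both counts.

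Gene positions came from RefSeq (GRCh38.p14). Covered percents of genes with a mean of at least 5% were fitted with limma 3.58.1 in R 4.3.3 over all such genes, taking the clone as a random block, with p-values adjusted by Benjamini-Hochberg (threshold 0.05). limma was tested on simulated shifts, and the interval code on simulated domains. Libraries of 1 clone share that clone, so p-values may be too small. HSPB8, the genes overlapping the 1.5 Mb window, the 3 heat shock lists, the marker genes and the 5 genes most like HSPB8 in root mean square difference were named by rule. The members and lists were chosen with earlier results of these data known. Other software was matplotlib 3.10.9, scipy 1.17.1, pandas 2.3.3 and numpy 2.4.6 under Python 3.11.15.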

Additional observations from a re-analysis of the deposited data

Results flagged for a closer look

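A library was singled out where its gap to the nearest other library of its construct took up most of the range of the 4 (Dixon's test at 95%). That was met by 7 values in 22 groups of 4. Chance flags about 1 in 20 groups of untied values, a rate that does not apply to 5 of the 7, where the other 3 libraries were tied at 0 or 100%. HSPB8 coverage was also the value the gene was chosen on. LmnB1_6 replicate 2 was the low one for HSPB8 coverage, at 80.6% against 100% in the other LmnB1 libraries, and for the right border of the block, at 154 kb after the start of HSPB8 against 222 to 234 kb. mCherry_4 replicate 2 covered the least of the window, at 294 kb. mCherry_4 replicate 1 had CCDC60 covered over 8.72%, with 0 in the other mCherry libraries. LmnB1_16 replicate 1 had CIT covered over 1.57%, and LmnB1_16 replicate 2 had HSPD1 covered over 3.05%, each with 0 in the other LmnB1 libraries. LmnB1_16 replicate 2 also had TSPAN8 covered over 82.1%, with 100% in the others.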

How the results depend on the processing

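The difference in HSPB8 coverage, LmnB1 minus mCherry, was 95.1 points. With 0 in every mCherry library, leaving out libraries or domains cannot turn its sign. It was 75.0 points with domains of a log2 enrichment of at least 1, where LmnB1_6 replicate 2 dropped out. It was 88.4 minus the library mean, 97.2 with 10 kb on each side of the gene, 100 with domains under 10 kb apart joined, and 93.5 to 100 with 1 library left out. The mean length of the domain over HSPB8 was 538 kb, 787 kb with domains joined, and 437 to 697 kb with 1 LmnB1 library left out, and its mean log2 enrichment 1.03 to 1.17. In the fit over all genes, limma called 5 higher and 2 lower. With 1 library left out the counts ran from 5 to 57 higher and from 2 to 8 lower. There were 57 higher without LmnB1_6 replicate 2, 9 without either mCherry_3 library, and 4 and 8 lower without LmnB1_16 replicate 1 and mCherry_4 replicate 2. Keeping only the 50% of domains with the highest scores per library, limma called 4 higher and 1 lower of 1487 tested. Only 1 of these genes was also among the 7 called in the main fit. After the cut to the length of the shortest list it called 7 higher and 2 lower of 1670 tested, again with 1 gene shared. Under these 2 settings the counts stayed small, but the called genes were mostly others. At a log2 enrichment of at least 1, 0 were higher and 0 lower in limma, with 118 of 1363 at an unadjusted p below 0.05. The cause was not tested. With a replicate block the counts were 5 and 2. Replicate numbers did not pair the libraries (correlations of the differences between replicates from -0.02 to 0.10 between clones), so the block was not used. The 3 heat shock lists had 0 members called, but at most 2 members of a list were ever tested, so this says nothing about stability. Domain lists limit what can be seen, since reads outside listed domains are not given.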

Other observations

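A short domain lay far to the right of HSPB8, in the CIT to BICDL1 interval, in libraries of both constructs. It ran from 119955001 to 119962000 in both LmnB1_16 libraries (log2 1.51 and 1.08), from 119955001 to 119961000 in LmnB1_6 replicate 1 (log2 1.48) and from 119954001 to 119968000 in mCherry_3 replicate 2 (log2 0.62). It was not listed in LmnB1_6 replicate 2, mCherry_3 replicate 1 or either mCherry_4 library.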
